A study of Mus musculus with 12 samples.

Results

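Antisense transcripts are RNAs made from the DNA strand opposite to a neighbouring gene. Many share a promoter region with that gene and run away from it (head-to-head), others meet its end (tail-to-tail) or lie inside one of its introns, and a few, such as Kcnq1ot1, are known to silence genes on the chromosome that makes them. Most are long, poorly conserved and of unknown function. TET2 is an enzyme that oxidises 5-methylcytosine at CpG sites, the first step by which DNA methylation is removed.

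The genes described here are the well-counted antisense genes of CD31+ lung cells from mice with or without endothelial Tet2. They were taken from 4 deposited tables, each of which compared 2 groups of libraries and listed only genes with an unadjusted p under 0.05 in the study's own test. A gene was kept if its type was given as antisense and its mean over the 6 raw counts of a row was at least 50 in at least 1 table. This rule kept 174 of the 466 antisense genes listed, out of 9338 listed genes of all types. The genes were thus selected on the same contrasts that are described below, so that their fold changes, and the counts past a threshold given with them, are a description of those contrasts and no test of these genes, and a gene that was not listed in a table has no value there.

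All mice were male, on a C57Bl/6J background, carried Tet2 fl/fl and received tamoxifen (40 mg/kg, repeated over 3 days) when they were 6 to 8 weeks old. TET2 KO mice also carried Cdh5-CreERT2, which is active in cells that use the VE-cadherin promoter, and WT mice did not. For 20 weeks they ate chow, with 13% of energy as fat, or HFD (a high fat diet), with 60%, and were 30 weeks old at harvest, with 3 mice in each of the 4 groups. Lung cells were enriched for the endothelial surface protein CD31 with antibody-coated beads, and poly(A) RNA was sequenced, with 36.7 to 56.8 M reads on genes per library. The deepest library was replicate 1 of WT on HFD. Tet2 itself appears for HFD against chow in WT alone, and the knockout libraries could not be checked for it here.

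The cells were not endothelial only. In the comparison of HFD with chow in WT, 14 of 15 endothelial markers were listed and all 14 were higher on HFD, with a summed level of 952 to 1683 FPKM (fragments per kilobase of gene and per M reads) on HFD and 315 to 882.4 FPKM on chow. The 6 listed of 9 lung epithelial markers were split, with Ager, Hopx and Epcam higher and Scgb3a2, Sftpb and Scgb1a1 lower on HFD, and summed to 2294 to 4651 FPKM on HFD and 4386 to 5887 FPKM on chow. Also higher on HFD in WT were 3 of 8 T cell markers (59.75 to 85.06 against 40.05 to 64.36 FPKM). Pdgfra and Pdgfrb were higher as well (1.272 to 1.815 against 0.7264 to 0.853 FPKM). Of 5 listed monocyte and macrophage markers, 3 were higher and 2 lower. The neutrophil marker Retnlg (53.3 to 229.1 against 268.9 to 488.5 FPKM) and the mesothelial marker Muc16 were lower. In TET2 KO against WT on HFD, 12 endothelial markers were listed and all were lower, at 474.4 to 862.8 FPKM against 908.3 to 1595 FPKM. In TET2 KO against WT on chow, the 3 listed epithelial markers were lower (2363 to 3104 against 4299 to 5643 FPKM) and 1 endothelial marker, Ramp2, was listed. There too 5 of 8 T cell markers were listed and higher (110.8 to 155.6 against 68.89 to 112.2 FPKM), and 4 of 8 fibroblast and smooth muscle markers (3.053 to 3.859 against 4.33 to 9.176 FPKM) and 4 of 5 mesothelial markers (0.6736 to 1.296 against 1.206 to 8.177 FPKM) were lower. For HFD against chow in TET2 KO, 4 of 8 monocyte and macrophage markers were listed and lower (1998 to 3388 against 3965 to 5551 FPKM). In the same comparison 4 mesothelial markers (3.091 to 6.263 against 0.6736 to 1.296 FPKM) and 4 fibroblast and smooth muscle markers (3.865 to 8.274 against 2.494 to 3.292 FPKM) were higher. The part of these shifts in the antisense values was not tested, and fewer cells of a type and less RNA per cell cannot be told apart in bulk samples.

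The counting is not stated to use strand, and the library preparation as described does not mark it. Reads from an antisense gene and from the gene opposite to it can therefore not be told apart wherever their exons overlap, or where unspliced RNA of the one covers exons of the other. All 174 genes had the same position and type in the GENCODE M21 annotation. Of these, 164 had an annotated protein-coding gene on the opposite strand and 10 had none (among them Gm17096 and Gm12946). Across the 174 genes, a median of 58.7% of exon bases lay in introns of the opposite gene, 8.83% on its exons and 7.54% outside it. In 100 genes over 50% of the exon bases were intronic to the opposite gene, in 57 over 50% were outside it and in 6 over 50% were on its exons, while 50 genes shared no exon base with it. The 10 genes with no opposite gene count as wholly outside here and below, and are among the 57 and the 50. In 51 genes the start lay within 1000 bases of the start of an opposite gene. The median length was 1706 bases, from 274 bases to the 93092 bases of Kcnq1ot1.

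Their symbols tell little of function: 116 were Gm numbers, 34 were Riken clones, 16 ended in "os" for opposite strand and 8 had other names. They were counted at a mean of 50 to 1260 reads, with a median of 105.4, and 4 reached 1000. The genes just inside the threshold were Gm7008 (50 reads), Gm44851 (51) and 4921514A10Rik (51.33), and those just outside were Gm16062 (49.5), Gm17111 (47.83) and Gm47917 (46.83). Of the 174, 77 were listed in 1 table, 74 in 2, 18 in 3 and 5 in all 4.

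Promoter windows of 300 bases (250 before the start and 50 after it) were available from RefSeq on GRCm38.p6 for 65 of the 174 genes by symbol, and for 37 of these the window's start site lay within 100 bases of the annotated start. In those 37 windows the median number of CpG sites was 20, against 7 over 27025 windows of all genes, and 20 of them (54.1%) had a GC share of at least 50% with an observed to expected CpG ratio of at least 0.6, as did 34.1% of all windows. Of the 37 windows, 12 also covered part of a UTR of a protein-coding gene. The 5 windows below belong to genes that are described further on and that cover no such UTR, and they are shown because the CpG site is the substrate of TET2 activity. They are written 5′ to 3′ on the strand of the gene, with each CpG in capitals. They run from 20 CpG sites in Atcayos, 9 in Kcnq1ot1, 8 in Gm15133 and 5 in Gm15638 to 0 in Gm13546. The windows lie at chr7:143296498-143296797 on the minus strand (Kcnq1ot1) and, on the plus strand, at chr10:81194441-81194740 (Atcayos), chr16:45945356-45945655 (Gm15638), chr2:58163724-58164023 (Gm13546) and chr7:104314781-104315080 (Gm15133).
Kcnq1ot1: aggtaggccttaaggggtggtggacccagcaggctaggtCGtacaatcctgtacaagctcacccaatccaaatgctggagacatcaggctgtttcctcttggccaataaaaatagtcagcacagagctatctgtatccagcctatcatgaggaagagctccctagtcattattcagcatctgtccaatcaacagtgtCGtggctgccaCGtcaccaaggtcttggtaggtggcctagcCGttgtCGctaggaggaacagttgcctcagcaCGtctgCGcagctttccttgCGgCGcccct
Atcayos: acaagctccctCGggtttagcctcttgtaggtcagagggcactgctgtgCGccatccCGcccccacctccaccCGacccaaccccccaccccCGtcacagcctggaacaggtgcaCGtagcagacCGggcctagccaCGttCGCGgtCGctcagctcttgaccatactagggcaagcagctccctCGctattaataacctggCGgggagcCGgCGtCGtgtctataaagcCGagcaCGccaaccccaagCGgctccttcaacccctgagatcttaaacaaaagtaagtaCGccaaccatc
Gm15638: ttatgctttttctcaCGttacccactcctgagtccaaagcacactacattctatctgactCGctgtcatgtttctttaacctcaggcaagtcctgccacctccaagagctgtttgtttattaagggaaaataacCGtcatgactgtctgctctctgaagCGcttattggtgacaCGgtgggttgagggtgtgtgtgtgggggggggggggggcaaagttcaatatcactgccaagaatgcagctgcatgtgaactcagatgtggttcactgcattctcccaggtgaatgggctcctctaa
Gm13546: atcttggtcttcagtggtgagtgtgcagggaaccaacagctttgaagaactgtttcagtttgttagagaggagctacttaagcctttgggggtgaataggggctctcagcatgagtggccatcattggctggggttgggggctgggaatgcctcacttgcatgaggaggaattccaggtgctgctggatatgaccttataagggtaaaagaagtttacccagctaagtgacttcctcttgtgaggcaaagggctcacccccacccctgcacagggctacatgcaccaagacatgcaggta
Gm15133: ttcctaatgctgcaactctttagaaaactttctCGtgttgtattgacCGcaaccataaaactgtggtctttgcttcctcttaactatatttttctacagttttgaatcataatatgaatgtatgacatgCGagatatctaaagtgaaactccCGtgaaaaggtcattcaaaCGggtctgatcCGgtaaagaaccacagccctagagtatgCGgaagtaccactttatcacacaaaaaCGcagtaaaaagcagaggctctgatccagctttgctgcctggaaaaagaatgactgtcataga
No methylation was measured in these files, and the letters alone say nothing of the state of these sites.

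On chow, TET2 KO against WT listed 32 of the 174 genes, of which 28 were lower and 4 were higher in TET2 KO. The median log2 fold change was -0.70, against -0.37 over all 1298 listed genes and 0.35 over the 907 listed protein-coding genes. By edgeR's quasi-likelihood test at an unadjusted p under 0.05, 20 were called lower and 3 higher. Over all listed genes, 46.0% were called lower and 30.6% higher. In 20 of the 32 the 3 libraries of one genotype did not overlap those of the other, which held for 74.7% of all listed genes. The contrast was used to choose the genes, so nothing is read from these shares.

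The largest differences on chow lay inside Mid1, a gene annotated on chromosome X for a ubiquitin ligase that binds microtubules. Gm15247 (chrX:169985801-169986939, minus strand) had normalised counts of 4.75, 10.6 and 52.9 in TET2 KO and 134, 243 and 124 in WT, a log2 fold change of -2.88 ± 0.77 (SE). Its TET2 KO libraries spread widely, with replicate 3 nearest to WT, but all lay below WT. Gm15726 (chrX:169979047-169985232, minus strand), which lies beside it in the same gene, had 29.4, 52.9 and 47.9 in TET2 KO and 105, 160 and 112 in WT, a log2 fold change of -1.53 ± 0.31. Mid1 itself had 215, 273 and 369 in TET2 KO and 757, 768 and 557 in WT (log2 fold change -1.28 ± 0.24), so that both antisense genes and the gene around them were lower in every TET2 KO library. The exons of Gm15247 and Gm15726 shared 27.3% and 28.3% of their bases with Mid1 exons. Per length, Gm15247 stood at 255.9% of the FPKM of Mid1 and Gm15726 at 221.9%, as means over the libraries of both genotypes. The log2 ratio of Gm15247 to Mid1 was -1.445, -0.6307 and 1.26 in TET2 KO and 1.564, 2.399 and 1.894 in WT. For Gm15726 it was 0.8504, 1.354 and 0.7775 in TET2 KO and 0.8776, 1.461 and 1.406 in WT.

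Other genes lower in TET2 KO on chow included Gm19719 (58.8, 114 and 80.4 against 147, 182 and 161 normalised counts, log2 fold change -0.95 ± 0.28) and Gm12946 (52.2, 66.4 and 57.0 against 73.7, 147 and 127, log2 fold change -0.98 ± 0.31). In both, no TET2 KO library reached the lowest WT library. The 4 higher genes were Brip1os, Gm35853, Gm33858 and C920021L13Rik. Gm33858, head-to-head with Cx3cr1, the fractalkine receptor of monocytes and lymphocytes, had 37.0, 64.4 and 70.2 against 30.8, 33.8 and 36.9 normalised counts. The groups did not overlap, though replicate 1 of TET2 KO lay beside the highest WT library. Cx3cr1 had a like difference, with log2 fold changes of 0.76 ± 0.31 for Gm33858 and 0.75 ± 0.27 for Cx3cr1.

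HFD against chow in WT listed the most, 136 of the 174 genes, of which 109 were lower and 27 higher on HFD. The median log2 fold change was -0.90, against -0.32 over all 7330 listed genes and 0.36 over the listed protein-coding genes. At an unadjusted p under 0.05, 100 were called lower, beside 49.2% of all listed genes, and 23 higher, beside 42.4%. The groups did not overlap in 124 of the 136 and in 86.5% of all listed genes. The median was also negative where over 50% of the exon bases lay in introns of an opposite gene (-0.83, 66 of 80 lower) and where over 50% lay outside it (-0.96, 32 of 44 lower).

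The 4 genes furthest below chow on HFD in WT were Ctcflos, Gm15533, Atcayos and Gm16853. Ctcflos (chr2:173110818-173133204, plus strand) overlaps Ctcfl, a germ line relative of the insulator protein CTCF, head-to-head. It had 4.43, 6.34 and 6.42 normalised counts on HFD and 117, 89.4 and 44.1 on chow, a log2 fold change of -3.86 ± 0.48. No HFD library came near the lowest chow library. Ctcfl was counted at 1.48, 2.12 and 8.56 on HFD and 21.9, 34.0 and 18.3 on chow, so it too was lower in every HFD library but near the limit of counting. Gm15533, head-to-head with Trim72, a membrane repair gene of muscle, had 5.17, 14.8 and 37.5 on HFD and 103, 196 and 217 on chow (log2 fold change -3.20 ± 0.65), and Trim72 had 14.0, 24.3 and 41.8 against 111, 225 and 240. The order of the 3 HFD libraries was the same in the gene and its partner.

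Atcayos spans Nmrk2, a nicotinamide riboside kinase gene of muscle, and meets the end of Atcay, a gene best known from the brain. It had 17.0, 20.1 and 11.8 normalised counts on HFD and 63.8, 118 and 218 on chow, a log2 fold change of -3.02 ± 0.51. Atcay had 15.5, 16.9 and 11.8 against 86.6, 80.4 and 211, and Nmrk2 had 5.91, 10.6 and 11.8 against 34.3, 67.9 and 157. All 3 genes were lower in every HFD library, and in all 3 chow replicate 3 was the highest. Gm16853 had 48.0, 76.1 and 86.7 on HFD and 252, 393 and 715 on chow (log2 fold change -2.70 ± 0.43).

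Furthest above chow on HFD in WT, among genes whose groups did not overlap, were Gm33858, Plxna4os1, Gm35853 and 9530082P21Rik. The last, which overlaps Kremen2 and Flywch1, had 226, 226 and 152 normalised counts on HFD and 45.7, 50.9 and 121 on chow (log2 fold change 1.47 ± 0.41). Gm33858 had 105, 103 and 156 normalised counts on HFD and 31.4, 35.1 and 38.7 on chow (log2 fold change 1.79 ± 0.27), and its partner Cx3cr1 had 5486, 4341 and 6242 against 1437, 1219 and 1647 (1.90 ± 0.18). In both genes every HFD library was well above the highest chow library. Plxna4os1, inside the semaphorin co-receptor gene Plxna4, had 110, 111 and 209 on HFD and 32.4, 26.0 and 77.4 on chow (1.66 ± 0.48). Gm35853, which spans the keratin gene Krt80, had 1313, 1242 and 1680 on HFD and 377, 311 and 693 on chow (1.62 ± 0.31), and Krt80 had 12640, 11044 and 13430 against 3400, 3814 and 7468 (1.34 ± 0.30). Chow replicate 3 stood nearest to the HFD libraries in Plxna4os1, Gm35853 and Krt80 alike.

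Some further genes higher on HFD in WT are given that were chosen after their values were seen. Gm10687, head-to-head with the adhesion molecule gene Mcam, had 159, 132 and 109 normalised counts on HFD and 50.4, 60.0 and 103 on chow (log2 fold change 0.91 ± 0.32). Gm10734, inside the collagen receptor gene Itga1, had 120, 98.3 and 68.5 against 48.5, 26.0 and 64.5 (1.05 ± 0.38). A030001D20Rik and Gm45437 both lie inside Rasip1, a gene needed for the lumen of blood vessels, and had log2 fold changes of 1.14 ± 0.54 and 0.93 ± 0.44 with groups that overlapped. Rasip1 itself had 6217, 4489 and 3448 on HFD and 1280, 1196 and 3268 on chow (1.30 ± 0.42). In all of these chow replicate 3 lay close to the lowest HFD library or above it. The summed endothelial markers likewise stood at 882.4 FPKM in chow replicate 3, against 362.6 and 315 FPKM in the other chow libraries and 952 FPKM in the lowest HFD library. Their part in these values was not tested.

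**Figure D1:**
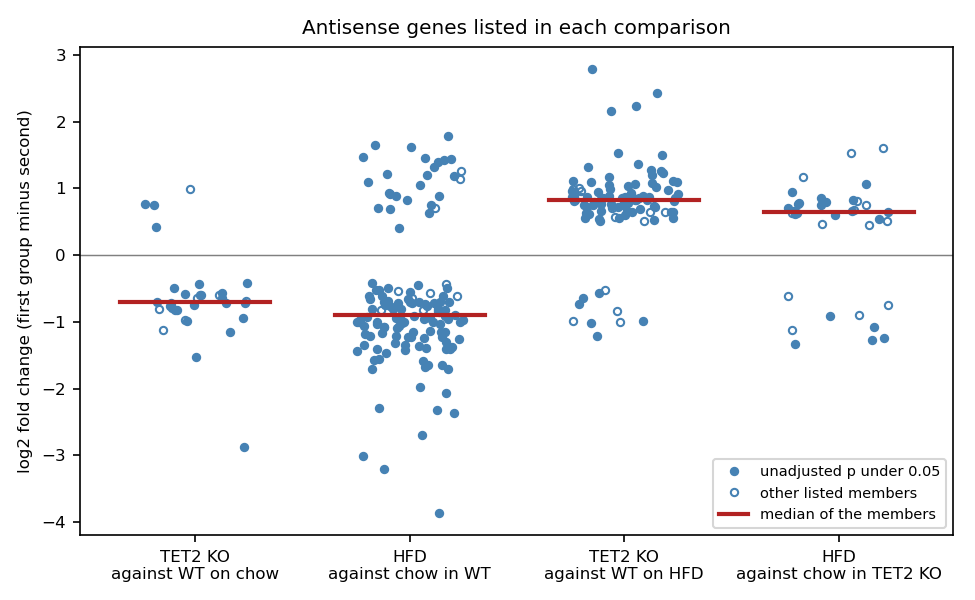
Log2 fold change of each well-counted antisense gene listed in each of the 4 comparisons, first group minus second group. Filled points have an unadjusted p under 0.05 by edgeR, open points do not, and red bars are medians (-0.70, -0.90, 0.83 and 0.65 from left to right); the median lies below 0 in the first 2 comparisons and above 0 in the last 2.

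TET2 KO against WT on HFD listed 96 of the 174 genes, and here 86 were higher and 10 lower in TET2 KO. The WT libraries on HFD are those compared with chow above, so that opposite signs in these 2 contrasts are not independent. The median log2 fold change was 0.83, against 0.33 over all 3939 listed genes and -0.40 over the protein-coding ones. At an unadjusted p under 0.05, 74 were called higher and 6 lower, beside 43.1% and 39.1% of all listed genes. The groups did not overlap in 70 of the 96 and in 74.7% of all listed genes. Replicate 3 of TET2 KO was the nearest of its group to WT in 59 of the 96 genes, and its median distance from the WT mean was 0.59 on the log2 scale, against 0.96 and 0.86 for replicates 1 and 2.

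Furthest above WT, among genes whose groups did not overlap, were Ctcflos, Atcayos, Gm16853 and Gm15638. Ctcflos had 26.2, 39.3 and 53.5 normalised counts in TET2 KO and 4.39, 6.34 and 6.39 in WT (log2 fold change 2.79 ± 0.44), with every TET2 KO library well above every WT library. Atcayos had 148, 62.7 and 20.7 against 16.9, 20.1 and 11.7 (2.24 ± 0.68), and Gm16853 had 473, 364 and 98.2 against 47.6, 76.1 and 86.2 (2.16 ± 0.55). In both, TET2 KO replicate 3 lay just above the highest WT library. Atcay, the partner of Atcayos, showed the same order with 179, 71.2 and 19.6 against 15.4, 16.9 and 11.7. Gm15638, which meets the end of Plcxd2, had 116, 66.9 and 59.0 against 31.5, 19.0 and 33.0 (1.53 ± 0.38).

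Of the 10 genes lower in TET2 KO on HFD, 9 were higher on HFD in WT, and the WT libraries on HFD enter both contrasts. A030001D20Rik had 112, 60.5 and 175 normalised counts in TET2 KO and 385, 237 and 183 in WT (log2 fold change -1.22 ± 0.43), beside a Rasip1 log2 fold change of -0.84 ± 0.30. 9530082P21Rik had 147, 94.5 and 56.8 against 224, 226 and 151 (-1.01 ± 0.36), and Gm35853 had 579, 1031 and 924 against 1303, 1242 and 1670 (-0.73 ± 0.24). No TET2 KO library of these 3 genes reached the lowest WT library. The tenth, Gm49417, head-to-head with the adhesion gene Sorbs3, was listed in this comparison only, with 115, 104 and 88.4 against 191, 116 and 170 (-0.64 ± 0.26).

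HFD against chow in TET2 KO listed 35 of the 174 genes, 26 higher and 9 lower on HFD. The median log2 fold change was 0.65, while it was -0.51 over all 1628 listed genes and -0.51 over the protein-coding ones. At an unadjusted p under 0.05, 16 were called higher and 5 lower, beside 29.3% and 47.7% of all listed genes, and the groups did not overlap in 21 of the 35 and in 72.6% of all listed genes. Gm15133, which overlaps Trim12a, a member of the tripartite motif family, had 108, 112 and 206 normalised counts on HFD and 57.6, 75.6 and 70.8 on chow (log2 fold change 1.06 ± 0.32). Gm28529, opposite to the chromatin gene Epc1, had 190, 205 and 189 against 114, 115 and 72.8 (0.95 ± 0.25). Every HFD library of both genes was above every chow library. Gm16341, which overlaps Armc9, had 69.9, 75.5 and 81.3 against 47.2, 37.8 and 40.5 (0.85 ± 0.27), and Gm20511, opposite to the formin gene Fmnl1, had 90.0, 129 and 109 against 67.9, 61.0 and 58.7 (0.80 ± 0.25). Lower on HFD were Gm17173, which contains the prostaglandin E2 receptor gene Ptger2, at 22.0, 53.1 and 29.6 against 97.2, 95.0 and 72.8 (-1.34 ± 0.38), and Gm13546, inside Cytip, at 69.9, 103 and 77.1 against 191, 188 and 151 (-1.08 ± 0.25). None of these 6 genes had overlapping groups, and the 2 lower genes were the ones of the 9 whose groups did not overlap.

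After Benjamini-Hochberg adjustment over the 55450 genes of the annotation, an upper bound of the number tested, edgeR called 0 of the 174 genes in each of the 4 comparisons, where 23, 123, 80 and 21 had an unadjusted p under 0.05 in the order given above. The same test called 0 of all listed genes in each comparison. The lowest adjusted p of the 174 genes by edgeR was 0.083, for HFD against chow in WT, and it was the same over all genes listed there. DESeq2 with the same adjustment called 0, 86, 11 and 0 of the 174 genes. Over all listed genes it called 6 of 1298, 3311 of 7330, 221 of 3939 and 31 of 1628. Nothing is read from these counts, since the contrasts chose the genes.

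The genotype was compared on 2 diets in separate mice, so that these contrasts share no library. The 19 genes listed in both all had opposite signs: 16 were lower in TET2 KO on chow and higher in TET2 KO on HFD, and 3 (C920021L13Rik, Brip1os and Gm35853) were the reverse. Among all 461 genes of any type listed in both, 99.1% had opposite signs. Each direction rests on the sample labels, which could not be checked from Tet2: an exchange of the genotype labels on one diet would reverse the direction given for that diet, and cannot be told apart from a real reversal here. Under such an exchange both contrasts of HFD with chow would also compare mice of different genotypes. For the diet, 15 of the 174 genes were listed in both WT and TET2 KO. Of these 9 (60.0%) were lower on HFD in WT and higher on HFD in TET2 KO, 5 were lower in both (Plet1os, Gm17173, Gm28809, Gm28884 and Gm47815) and 1 (Gm16120) was higher in both. Over the 611 genes of all types listed in both, 29.6% had opposite signs. A gene appears in both tables only if it passed the study's threshold in each, and no test of the difference between the contrasts was made.

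**Figure D2:**
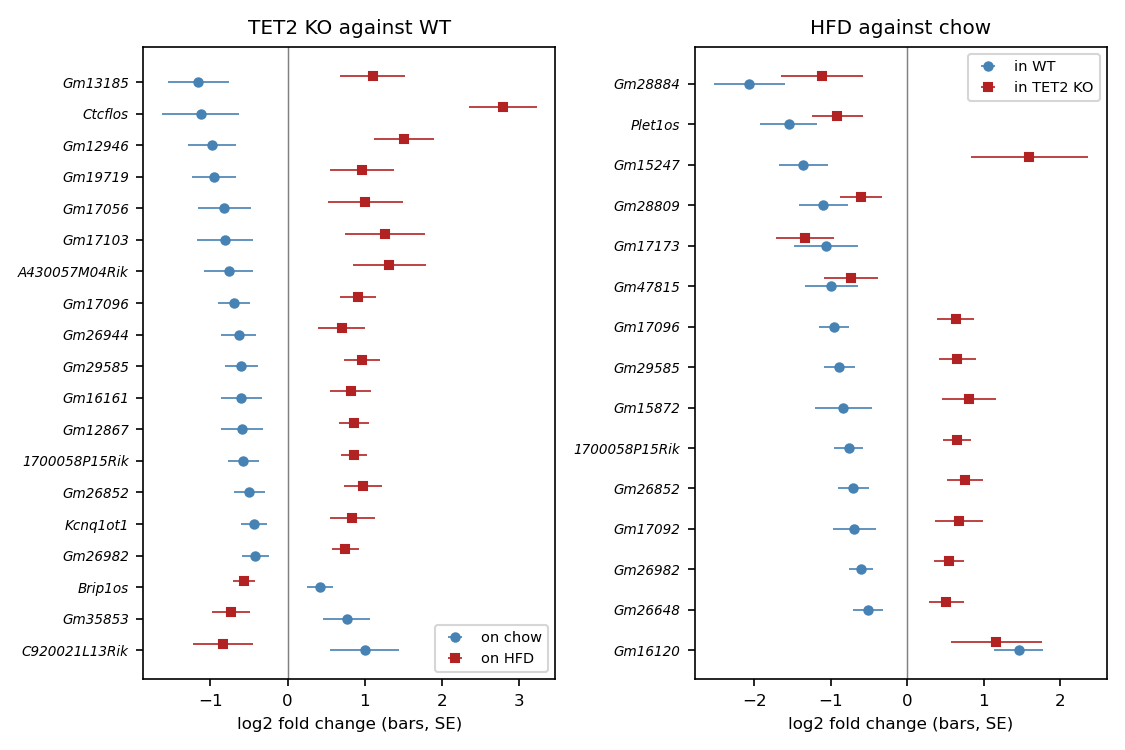
Log2 fold changes with SE of the antisense genes listed on both diets (left, TET2 KO against WT, 19 genes) and in both genotypes (right, HFD against chow, 15 genes). On the left, circles (chow) and squares (HFD) lie on opposite sides of 0 in all 19 genes; on the right they do so in 9 of the 15.

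Levels across the 4 groups can be followed in FPKM, which for a library is the same in each table. Kcnq1ot1 (chr7:143203458-143296549, minus strand), the long imprinted transcript that starts inside Kcnq1 and silences neighbouring genes on the paternal chromosome, had 0.174, 0.235 and 0.224 FPKM in WT on chow and 0.0607, 0.0844 and 0.0641 in WT on HFD. In TET2 KO it had 0.167, 0.140 and 0.161 FPKM on chow and 0.141, 0.155 and 0.0770 on HFD. All WT libraries on HFD lay below all chow libraries of either genotype, and TET2 KO replicate 3 on HFD lay between the highest and the second WT library on HFD. Its log2 fold change was -1.59 ± 0.19 for HFD against chow in WT. For the genotype it was -0.43 ± 0.17 on chow and 0.84 ± 0.29 on HFD.

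Gm26982, a single-exon gene at the end of Ghrl, the gene of the hormone ghrelin, was listed in all 4 tables. It had 19.2, 15.4 and 15.2 FPKM in WT on chow, 10.6, 12.7 and 14.1 in TET2 KO on chow, 10.6, 12.4 and 9.48 in WT on HFD and 21.3, 16.5 and 16.6 in TET2 KO on HFD. The groups of WT on chow and TET2 KO on HFD overlapped, as did those of TET2 KO on chow and WT on HFD, and the 2 pairs did not overlap each other. The other genes listed in all 4 tables, 1700058P15Rik, Gm17096, Gm26852 and Gm29585, had the same signs as Gm26982 in each table. Ghrl had the same sign as Gm26982 in both comparisons that listed it, with normalised counts of 106, 130 and 124 on HFD against 268, 284 and 330 on chow in WT.

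Brip1os (chr11:86201370-86304443, plus strand), which overlaps Ints2 and the Mediator gene Med13, had the reverse order. It stood at 3.09, 3.34 and 3.07 FPKM in WT on chow, 5.09, 3.66 and 3.98 in TET2 KO on chow, 5.01, 4.59 and 5.07 in WT on HFD and 2.89, 3.68 and 3.31 in TET2 KO on HFD. Med13 was listed only for TET2 KO against WT on HFD, where it had the opposite sign (log2 fold change 0.39 ± 0.17 against -0.57 ± 0.14). Gm35853 stood at 2.55, 2.11 and 4.67 FPKM in WT on chow, 5.01, 4.67 and 6.24 in TET2 KO on chow, 8.84, 8.39 and 11.3 in WT on HFD and 3.88, 6.97 and 6.27 in TET2 KO on HFD. All WT libraries on HFD were above all others in Gm35853.

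The levels of the remaining genes of 3 or 4 tables were as follows. 1700058P15Rik, opposite to the actin regulator gene Vasp, had 28.0, 24.7 and 18.8 FPKM in WT on chow, 14.9, 16.0 and 17.2 in TET2 KO on chow, 13.3, 12.9 and 15.6 in WT on HFD and 22.1, 28.3 and 25.1 in TET2 KO on HFD. Gm17096 had 11.8, 9.99 and 11.5, then 5.47, 8.13 and 7.001, then 4.997, 7.001 and 5.04, then 12.4, 11.0 and 8.45 FPKM in the same order of groups. In both, WT on chow and TET2 KO on HFD held the high libraries. Gm26852, inside the DNA repair helicase gene Ercc2, had 1.14, 0.942 and 0.910 FPKM in WT on chow, 0.717, 0.789 and 0.620 in TET2 KO on chow, 0.661, 0.677 and 0.488 in WT on HFD and 1.498, 0.951 and 1.13 in TET2 KO on HFD. Gm29585, which overlaps Esyt1 and Zc3h10, had 6.78, 4.63 and 5.44, 3.63, 3.29 and 4.23, 3.41, 2.97 and 2.66, and 7.70, 5.06 and 4.79 FPKM in these groups. In these 2 genes no library of TET2 KO on chow or WT on HFD reached the lowest library of the other 2 groups.

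In 11 genes, Kcnq1ot1 and Ctcflos among them, TET2 KO was lower on chow, HFD was lower in WT and TET2 KO was higher on HFD, while HFD against chow in TET2 KO did not list them. Ctcflos had 0.550, 0.422 and 0.206 FPKM in WT on chow, 0.0827, 0.223 and 0.238 in TET2 KO on chow, 0.0207, 0.0298 and 0.03002 in WT on HFD and 0.122, 0.185 and 0.252 in TET2 KO on HFD. Gm12867, inside the glucose transporter gene Slc2a1, had 12.9, 12.4 and 13.4, 6.25, 7.40 and 12.1, 6.20, 5.48 and 5.64, and 11.95, 9.63 and 9.76 FPKM in the same groups. In both, every library of WT on HFD lay below all libraries of the other 3 groups. Gm12946 had 3.47, 7.08 and 6.13 FPKM in WT on chow, 2.48, 3.21 and 2.73 in TET2 KO on chow, 0.950, 1.22 and 1.03 in WT on HFD and 3.26, 4.07 and 1.72 in TET2 KO on HFD. Gm19719, opposite to Alox5ap, a gene of leukotriene synthesis, had 0.852, 1.08 and 0.952, 0.343, 0.679 and 0.472, 0.312, 0.365 and 0.633, and 0.496, 1.27 and 0.769 FPKM. In Gm12946 WT on HFD stood below all other libraries, while in Gm19719 TET2 KO on HFD overlapped each of the other groups.

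The other 6 of these 11 genes overlap a range of protein-coding genes. Gm13185, opposite to Fam107b, had 3.77, 1.90 and 2.88 FPKM in WT on chow, 1.91, 0.997 and 0.937 in TET2 KO on chow, 0.597, 1.53 and 0.783 in WT on HFD and 2.50, 2.26 and 1.42 in TET2 KO on HFD. Gm16161, opposite to the phosphatase gene Mtmr14, had 11.96, 10.3 and 8.05, 5.41, 6.66 and 8.02, 5.34, 5.23 and 6.42, and 12.6, 9.30 and 7.87 FPKM. A430057M04Rik, opposite to Comtd1, had 0.363, 0.707 and 0.545, 0.240, 0.398 and 0.312, 0.134, 0.0431 and 0.140, and 0.335, 0.275 and 0.184 FPKM. Of these, A430057M04Rik alone had WT on HFD apart from all other groups. Gm17056, head-to-head with Lsmem1, had 1.24, 2.32 and 1.90 FPKM in WT on chow, 1.44, 0.714 and 0.924 in TET2 KO on chow, 0.337, 0.506 and 0.899 in WT on HFD and 1.08, 1.76 and 0.628 in TET2 KO on HFD. Gm17103, opposite to Tmem39a, had 2.04, 4.02 and 3.08, 1.66, 2.33 and 1.20, 0.898, 1.06 and 0.929, and 3.82, 2.13 and 0.908 FPKM. Gm26944, which meets the end of the transcription termination gene Pcf11, had 4.22, 4.99 and 6.36, 3.07, 3.43 and 3.51, 2.36, 3.15 and 2.62, and 5.95, 3.90 and 3.28 FPKM. TET2 KO on HFD overlapped WT on HFD in Gm17056 and Gm17103 but not in Gm26944, and its replicate 3 was its lowest library in all 3.

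Of the genes in 3 tables, 3 were lower on HFD in WT and higher on HFD in TET2 KO, as well as higher in TET2 KO on HFD. Gm15872, inside Traf3ip3, had 3.29, 2.09 and 1.39 FPKM in WT on chow, 1.31, 0.806 and 1.80 in TET2 KO on chow, 1.49, 1.37 and 0.898 in WT on HFD and 2.24, 2.87 and 1.75 in TET2 KO on HFD. Gm17092, opposite to Hnrnpd, a gene for an RNA-binding protein, had 3.73, 2.81 and 5.11, 2.99, 1.45 and 2.68, 2.35, 2.68 and 2.16, and 3.86, 3.75 and 3.76 FPKM. Gm26648, opposite to Nub1, had 1.34, 1.02 and 1.05, 0.775, 0.782 and 1.02, 0.785, 0.897 and 0.695, and 1.52, 1.01 and 1.14 FPKM. The 3 TET2 KO libraries on HFD of Gm17092 lay close together and above both TET2 KO on chow and WT on HFD. Gm15247 had 8.15, 15.1 and 7.70 FPKM in WT on chow, 0.291, 0.659 and 3.26 in TET2 KO on chow, 4.41, 3.32 and 4.18 in WT on HFD and 4.97, 5.24 and 2.48 in TET2 KO on HFD, so that on HFD the genotypes overlapped. C920021L13Rik, which meets the end of BC028528, had 0.822, 0.747 and 1.18, 3.14, 1.07 and 1.27, 3.72, 2.13 and 1.54, and 1.83, 0.877 and 1.41 FPKM, with TET2 KO overlapping WT on both diets.

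**Figure D3:**
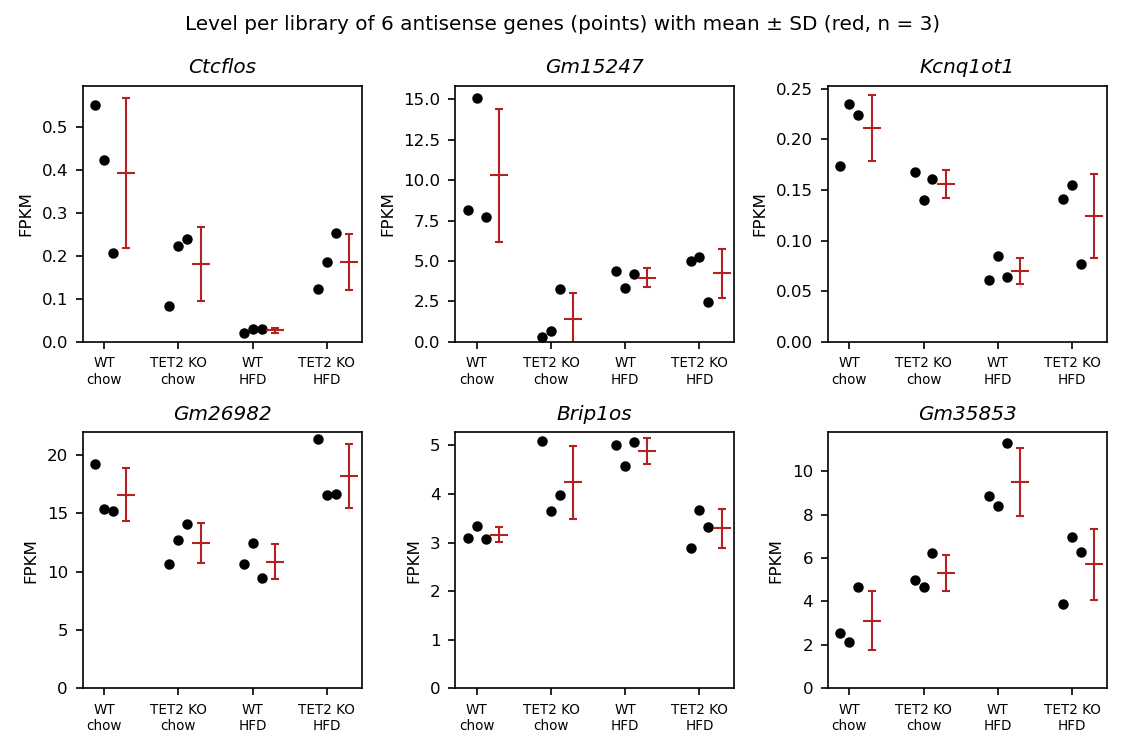
FPKM in each of the 12 libraries (points, 3 mice per group) for 6 antisense genes with values in all 4 groups, with mean ± SD in red (n = 3; the lower bar of Gm15247 in TET2 KO on chow is cut at 0). Ctcflos, Kcnq1ot1 and Gm26982 have their lowest mean in WT on HFD, Gm15247 in TET2 KO on chow, and Brip1os and Gm35853 have their highest mean in WT on HFD.

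Of the 174 genes, 103 overlapped at least 1 protein-coding gene that was itself listed, which made 122 pairs: in 55 the antisense gene lay inside the partner, 37 were head-to-head, 21 were tail-to-tail, in 8 the antisense gene contained the partner and 1 pair (Gm17096 with Cse1l) was on the same strand. In 83 of the 122 pairs exons overlapped. The antisense gene and its partner were listed in the same table in 106 pairs, from 88 antisense genes. Within a table both genes are read from the same libraries, so a pair adds no library to the comparison.

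Partners mostly had the same sign. For HFD against chow in WT, 73 of 89 pairs had the same sign, 55 with both lower and 18 with both higher. The median log2 fold change was -1.03 for the antisense genes and -0.43 for their partners, and the antisense gene had the larger change of the 2 in 61 of the 89 pairs. For TET2 KO against WT on HFD, 50 of 52 pairs had the same sign, 44 with both higher and 6 with both lower, with medians of 0.83 and 0.59, and the antisense gene had the larger change in 41. On chow, TET2 KO and WT differed with the same sign in 4 of 5 pairs, and for HFD against chow in TET2 KO this held in 8 of 8. Per length, the antisense gene had a median of 25.3% of the FPKM of its partner in the comparison of HFD with chow in WT and 13.3% in that of TET2 KO with WT on HFD. It stood above its partner in 22 of the 89 and 4 of the 52 pairs. These counts and medians are over pairs, so a gene with several partners enters once for each. The 89 pairs came from 72 antisense genes and the 52 pairs from 47. In each of these 2 comparisons most antisense genes and most partners had one sign, so many pairs of like sign would arise without any link. The share of like signs among genes that do not overlap was not computed. Reads of a partner may also be counted in the antisense gene, and the WT libraries on HFD enter both comparisons. No link between an antisense gene and its partner is read from these counts. Gm29994, inside the protocadherin gamma genes, stood above its partner in all of its pairs for HFD against chow in WT (111.3% to 1427%).

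Among the pairs with the highest counts, Gm15674 is head-to-head with Cd55b, a gene of complement control, and had 2809% of its FPKM in WT. In WT, Gm15674 had 717, 733 and 419 normalised counts on HFD and 1570, 1207 and 608 on chow (log2 fold change -0.86 ± 0.37, groups overlapping), and Cd55b had 13.3, 8.46 and 12.8 against 44.7, 44.2 and 62.3 (-2.11 ± 0.33). On HFD, Gm15674 had 1240, 1016 and 926 in TET2 KO and 711, 733 and 416 in WT (0.77 ± 0.24), and Cd55b had 56.3, 23.4 and 21.8 against 13.2, 8.46 and 12.8. Etohd2 is head-to-head with Isca1, an iron-sulphur cluster gene, and meets the end of Tut7, a gene for an RNA uridylyltransferase. In WT, Etohd2 had 324, 383 and 483 on HFD and 777, 725 and 934 on chow (-1.04 ± 0.19), with -0.65 ± 0.11 for Isca1 and -0.45 ± 0.12 for Tut7. On HFD, Etohd2 had 929, 743 and 422 in TET2 KO against 322, 383 and 480 in WT (0.82 ± 0.30), so that replicate 3 of TET2 KO lay among the WT libraries. Gm49354, an annotated gene that spans Etohd2, had 0 to 8.60 normalised counts, and its fold changes are not given. Its pair with Etohd2 is nonetheless among the pairs counted for both comparisons.

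Gm44686, head-to-head with the chromatin remodeller gene Chd2, had 421, 425 and 318 normalised counts on HFD and 697, 491 and 514 on chow in WT (log2 fold change -0.55 ± 0.20), and on HFD 593, 523 and 557 in TET2 KO against 418, 425 and 316 in WT (0.53 ± 0.17). Chd2 had -0.67 ± 0.14 and 0.66 ± 0.22, and neither gene had overlapping groups. Gm26586, inside the tropomyosin gene Tpm4, had 584, 575 and 457 in TET2 KO on HFD against 322, 350 and 288 in WT (0.75 ± 0.17), beside 0.39 ± 0.16 for Tpm4. Gm16279, which contains the tubulin acetyltransferase gene Atat1, had 79.0, 74.0 and 87.8 on HFD and 113, 152 and 129 on chow in WT (-0.71 ± 0.21), beside -0.63 ± 0.12 for Atat1. 1500015A07Rik, which meets the end of Afap1l1, a gene of actin-rich adhesion structures, had 438, 410 and 334 on HFD and 291, 286 and 314 on chow (0.41 ± 0.16), while Afap1l1 had 11053, 8561 and 6392 against 2369, 2512 and 5012 (1.39 ± 0.34). In these last 3 genes too the groups did not overlap. With no listed partner, 1600020E01Rik had 5.59, 6.08 and 4.39 FPKM on HFD and 7.18, 6.54 and 7.72 on chow in WT, and Gm15987, inside Clec2g, had 8.16, 9.61 and 8.84 against 5.31, 4.04 and 5.64 FPKM, both without overlap.

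Pairs were also counted by arrangement, with no test of the difference between arrangements. On HFD against chow in WT the signs agreed in 26 of 28 head-to-head pairs, 13 of 15 tail-to-tail pairs, 6 of 7 containing pairs and 28 of 39 pairs with the antisense gene inside its partner. In TET2 KO against WT on HFD they did so in 15 of 15, 12 of 13, 2 of 2 and 20 of 21 pairs in the same order. Where at least 10% of the antisense exon bases lay on exons of the partner, a limit chosen after seeing the data, 34 of 36 pairs (94.4%) had the same sign for HFD against chow in WT, against 39 of 53 (73.6%) where less was shared. For TET2 KO against WT on HFD these counts were 25 of 26 and 25 of 26. For HFD against chow in WT, the inside class held 9 of the 16 pairs of opposite sign through 1 gene alone, Gm29994, which lies inside the clustered protocadherin gamma genes on chromosome 18. Gm29994 shared no exon base with any of its partners. These 9 pairs are thus also among the 14 pairs of opposite sign where less was shared, so that the 2 shares above differ largely through this gene. Gm29994 had 31.7, 48.6 and 50.3 normalised counts on HFD and 66.6, 108 and 134 on chow, a log2 fold change of -1.24 ± 0.34. Pcdhgc4 and Pcdhgc5 had -1.99 and -1.82, and the other 9 listed genes of the cluster had 0.83 to 1.91.

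**Figure D4:**
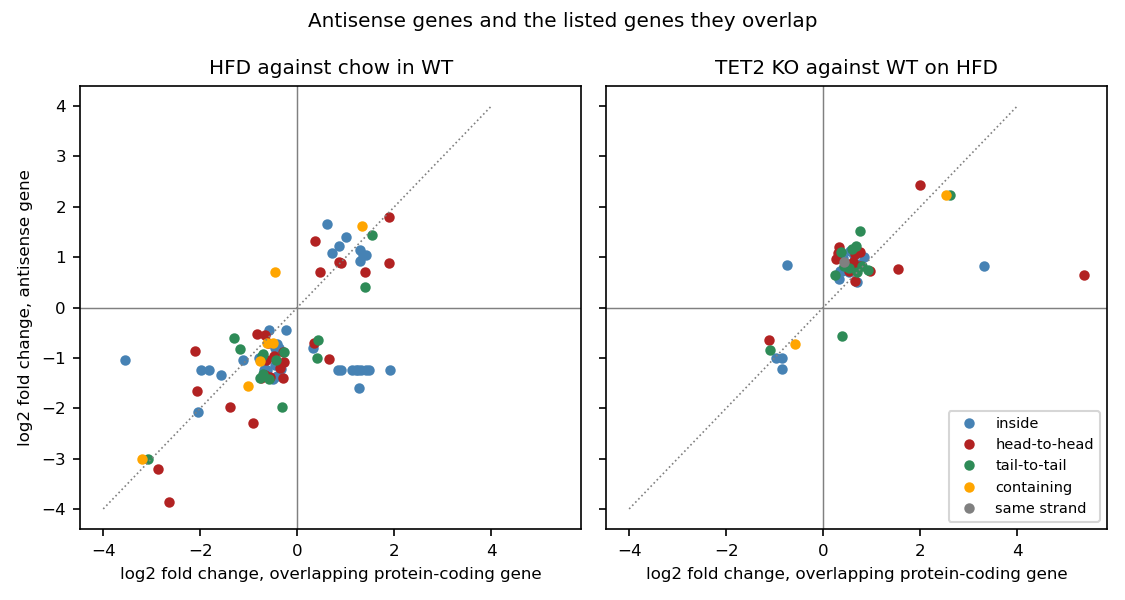
Log2 fold change of each antisense gene against that of the listed protein-coding gene it overlaps, for HFD against chow in WT (left, 89 pairs) and TET2 KO against WT on HFD (right, 52 pairs), coloured by arrangement, with a dotted line of equal change. Most points lie in the lower left quadrant on the left and in the upper right quadrant on the right, and the row of blue points at right on the left panel is Gm29994 with genes of the protocadherin gamma cluster.

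Among the other pairs of opposite sign, Kcnq1ot1 and Kcnq1 stood furthest apart. In WT, Kcnq1, a potassium channel gene, had 758, 609 and 481 normalised counts on HFD and 173, 181 and 407 on chow (log2 fold change 1.28 ± 0.37), while Kcnq1ot1 had 237, 329 and 251 on HFD and 676, 909 and 874 on chow. Neither gene had overlapping groups, and their signs were opposite. In TET2 KO against WT on HFD the signs were again opposite, with 0.84 ± 0.29 for Kcnq1ot1 and -0.75 ± 0.29 for Kcnq1, though the groups overlapped in both genes and the WT libraries are the same as before. Only 0.13% of the exon bases of Kcnq1ot1 lie on exons of Kcnq1. Gm19261, head-to-head with the monocyte gene Ms4a6b, had 76.8, 116 and 67.4 on HFD and 224, 145 and 157 on chow (-1.01 ± 0.29), whereas Ms4a6b had 6737, 6466 and 4036 against 4588, 2881 and 3470 (0.66 ± 0.25). Gm9917, the gene with the highest mean count, contains the tumour suppressor candidate Tusc2 and is head-to-head with Hyal2, a hyaluronidase gene. It had 1938, 1426 and 1090 on HFD and 635, 800.5 and 1285 on chow (0.71 ± 0.31, groups overlapping), beside 1.40 ± 0.35 for Hyal2 and -0.46 ± 0.12 for Tusc2. Of its exon bases 49.5% lie on exons of opposite genes.

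Partners with known roles in chromatin and transcription were few. Of 19 listed regulators of DNA methylation and chromatin, the histone demethylase gene Kdm6b was the one partner, with Kdm6bos inside it. In WT, Kdm6bos had 294, 313 and 369 normalised counts on HFD and 442, 459 and 426 on chow (log2 fold change -0.44 ± 0.15), and on HFD it had 510, 483 and 392 in TET2 KO against 292, 313 and 367 in WT (0.51 ± 0.18). Kdm6b had -0.59 ± 0.19 and 0.69 ± 0.21 in the same comparisons, and neither Kdm6bos nor Kdm6b had overlapping groups in either. The WT libraries on HFD enter both comparisons, so these are not independent. Of 38 endothelial and lung transcription factors, Runx1 was the one partner: Gm26626, inside it, had 37.6, 42.3 and 36.4 on HFD and 55.2, 103 and 88.1 on chow in WT (-1.08 ± 0.30), beside -0.68 ± 0.18 for Runx1. Of 37 interferon response genes and 27 endothelial surface and vasoactive genes, 0 were listed partners. Among annotated opposite genes that were not listed, Adamts9 of the endothelial list overlapped 9530026P05Rik. Hif1a and Ets1 of the transcription factors likewise overlapped Gm15283 and Gm27240. These counts cover only the genes of each list, which left out partners such as Mcam, Itga1 and Rasip1. Plet1os, which contains the epithelial surface gene Plet1, had 205, 126 and 292 normalised counts on HFD and 427, 855 and 549 on chow in WT, and 211, 322 and 164 against 577, 451 and 284 in TET2 KO. Its log2 fold changes were -1.55 ± 0.37 in WT and -0.92 ± 0.34 in TET2 KO (groups overlapping), and Plet1 had -1.02 ± 0.29 and -0.88 ± 0.31.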

How the data were processed

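Lung cells were enriched with anti-CD31 beads and sequenced in 12 libraries (4 groups of 3 mice). Per the labels and the study's methods, the authors aligned reads to mm10 with HISAT2 and counted them per gene with featureCounts, with versions not given in the sources used here. The deposited tables hold raw counts, the authors' normalized counts (a signal: count divided by 1 DESeq2 size factor per library and table) and the authors' FPKM per kilobase of gene length. They also hold the authors' fold changes, p-values and adjusted p-values, which were not used. Only genes under the authors' unadjusted p of 0.05 are listed, so untested background is not analysed here. The library total was recovered from count, length and FPKM. Counts were fitted with edgeR 4.0.16 (glmQLFit, glmQLFTest, all listed genes, the authors' size factors, R 4.3.3), with 0.05 as the unadjusted threshold, and with DESeq2 1.42.0 as an alternative, after tests on simulated data. SE is the log2 fold change divided by the root of F. Overlaps used the GENCODE M21 annotation and RefSeq promoters on GRCm38.p6. Any gene of the set could be named. Those given in every library were the 8 with the highest mean count, the 4 higher and 4 lower with the largest change per comparison among genes whose groups did not overlap, those in 3 or 4 tables, pairs with high counts or opposite signs, and those at the threshold. Other named genes were chosen after their values were seen. Members and lists were chosen with earlier results of these data known. Replicates were separate mice. Replicate numbers are shared between groups, but correlations of same-numbered deviations ran from -0.227 to 0.264, so they were not taken as pairs.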

Additional observations from a re-analysis of the deposited data

Results flagged for a closer look

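The effect of TET2 KO had one sign in every library on chow and the other in every library on HFD, with no overlap between genotypes on either diet, in 9 of the 19 genes listed on both diets (47.4%), as in 231 of all 461 such genes of any type (50.1%). This difference was not tested. The log2 effect on chow minus that on HFD was -1.43 for 1700058P15Rik, 0.99 for Brip1os, -1.45 for Gm12867, -2.49 for Gm12946, -1.61 for Gm17096, -1.47 for Gm26852, -1.33 for Gm26944, -1.17 for Gm26982 and -1.56 for Gm29585.

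The effect of HFD was of opposite sign in WT and TET2 KO in the same way, without overlap, in 6 of the 15 genes listed in both genotypes (40%), and in 110 of all 611 such genes (18%). This difference was not tested either, and nothing is read from these shares, since the contrasts chose the genes. The log2 effect in WT minus that in TET2 KO was -1.42 for 1700058P15Rik, -1.37 for Gm17092, -1.59 for Gm17096, -1.46 for Gm26852, -1.15 for Gm26982 and -1.55 for Gm29585. A gene could be seen here only if it was listed in both tables.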

How the results depend on the processing

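No log2 fold change of a gene changed sign under the alternatives run. In 2408 cases its side of the unadjusted threshold was kept, in 450 it was lost and in 132 it was gained. Leaving out 1 library gave 10 to 18 called genes on chow for the genotype (23 with all libraries, 10 without WT replicate 2), 93 to 117 for HFD against chow in WT (123), 47 to 79 for TET2 KO against WT on HFD (80, with 47 both without TET2 KO replicate 2 and without WT replicate 1) and 10 to 24 for HFD against chow in TET2 KO (21, with 10 without TET2 KO chow replicate 2). With a log2 fold change over 1 also required, 3, 69, 24 and 5 were called in that order, and with adjusted p 0 in each, where more genes count as tested. With a replicate block 17, 110, 68 and 22 were called and 4, 73, 50 and 8 pairs had the same sign. The shares of all listed genes called under these settings are not given here. A loss of calls particular to these genes can therefore not be told apart from one over all listed genes. Pairs of the same sign were 40 of 53 (75.5%, beside 73 of 89 or 82%), 26 of 27 (50 of 52) and 5 of 5 (8 of 8) in the last 3 comparisons with an overlap of at least 50% of the antisense span. With under 10% of exon bases shared, an alternative chosen after seeing the data, they were 2 of 3 (4 of 5), 39 of 53 (73.6%), 25 of 26 and 5 of 5 in the order of all 4. For HFD against chow in WT, both sets of 53 pairs hold every pair of Gm29994, most of which were of opposite sign. A minimum mean count of 20 gave 271 antisense genes and one of 100 gave 90. With an overlap of at least 50% of the span, 57 of the 103 genes had a partner. Counts near 50 limit single genes, since SE values up to 0.77 on the log2 scale leave small changes unseen.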

Other observations

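Other noncoding and unprocessed gene types were counted in the same way, with no test of a difference between types. Genes annotated as TEC, for which experimental evidence is still awaited, were lower in 89.7% of those listed in the genotype contrast on chow, 90.3% for HFD against chow in WT, 10.3% for TET2 KO against WT on HFD and 41.5% for HFD against chow in TET2 KO. In that order sense intronic genes were lower in 90%, 90.2%, 13.2% and 42.9%, processed pseudogenes in 78.3%, 84.1%, 14.7% and 55.8%, and lincRNA genes in 65.3%, 80.4%, 22% and 64%. The antisense genes of the set were lower in 87.5%, 80.1%, 10.4% and 25.7%, and listed protein-coding genes in 43.7%, 42.5%, 57.6% and 65.1%. For HFD against chow in TET2 KO, lincRNA genes and processed pseudogenes were thus mostly lower where the antisense genes were mostly higher. The 225 other listed antisense genes, with means under 50 counts, were lower in 83.6% for HFD against chow in WT. Gt(ROSA)26Sor, the transcript of the Rosa26 locus that is often used to hold transgenes, had 472, 545 and 409 normalised counts on HFD and 618, 745 and 818 on chow in WT, and on HFD 900, 621 and 629 in TET2 KO against 469, 544 and 407 in WT.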
